A study of Mus musculus with 20 samples.

Results

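The 10 genes described here are imprinted growth-control genes of the mouse: Igf2, H19, Cdkn1c, Dlk1, Meg3, Plagl1, Peg3, Ndn, Nnat and Snrpn. They were taken by name from a list and matched by symbol to the Ensembl identifiers of the count tables, and each of the 10 matched 1 identifier among the 46078 genes counted. The members were selected on their measured levels and region and treatment differences in these libraries, since the list was drawn up, without a threshold, with the values of all 4 groups known, so the fold changes and adjusted p-values given for these 10 genes describe them and support no claim about imprinted genes. The libraries measured polyadenylated RNA in brain tissue of wild-type C57BL/6J mice aged 18 months, taken 7 weeks after DH stroke, in which occlusion of the distal middle cerebral artery is combined with hypoxia. All mice had the stroke, and from 1 week after it they received subcutaneous injections 3 times per week for 6 weeks, of sterile PBS (vehicle) or of HPBCD at 4 g/kg. HPBCD is hydroxypropyl-β-cyclodextrin, a ring of sugar units that takes up cholesterol. For each treatment, the peri-infarct region dissected from beside the removed infarct and the corresponding contralateral region gave 5 libraries each, 20 in all. No measured gene identifies the treatment of a library, so the treatment of each library rests on its label. An exchange of the treatment labels could not be seen in these data and would reverse the sign of every treatment difference and of every interaction below, and the region differences given with vehicle and with HPBCD would trade places. Peri-infarct libraries labelled HPBCD had lower sums of 9 neuron markers (2746 to 5778 CPM) than those labelled vehicle (5675 to 7947 CPM). For 5 astrocyte markers the median sum was higher (5270 against 3433 CPM), but the groups overlapped (4384 to 7460 against at most 5055 CPM). At an adjusted p under 0.05 (edgeR), 6 of the 9 neuron markers were lower and 1 of the 5 astrocyte markers was higher. Of all genes, 9% were lower and 12.4% higher. The labels were taken as given.

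An imprinted gene is expressed mainly from the copy inherited from 1 parent, because a control region carries DNA methylation on only one of the parental chromosomes. Imprinted genes lie in clusters whose paternally and maternally expressed members often act in opposite directions on growth, many are most active in the fetus and placenta, and several stay active in the adult brain. These libraries do not separate the parental copies, so the parent named for a gene is background and every value below is the sum over both copies.

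Libraries held 14445021 to 22171627 gene counts (median 19008532), at which a count of 3, taken as the floor, corresponds to 0.135 to 0.208 CPM (read-pair counts scaled to the library total, with TMM factors). HPBCD contralateral replicate 4 stood apart, with 8.03% of its read pairs ambiguous between genes against 3.94% to 4.16% in the other 19 libraries. Vehicle contralateral replicate 1 stood apart in striatum markers, with a summed level of 3375 CPM over 8 genes against 197 to 283 CPM in the other vehicle contralateral libraries. Neuron markers (9 genes) summed to 8943 to 10852 CPM in vehicle contralateral, 5675 to 7947 in vehicle peri-infarct, 10745 to 11568 in HPBCD contralateral and 2746 to 5778 in HPBCD peri-infarct libraries. Fibroblast and meninges markers (10 genes) summed to 34.2 to 190, 79.7 to 445, 52 to 162 and 513 to 1426 CPM in the same order. No marker of these lists was at 0 in a whole group. In bulk tissue, fewer cells of a type and less RNA per cell cannot be told apart, which holds for every difference below.

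The RefSeq promoter table of GRCm38.p6 held 15 start sites for 8 of the 10 genes, each with 250 bases before and 50 after the start. The promoters of Nnat, Ndn and Snrpn are shown because they hold the same 8 letters, CGCATGCG, printed in capitals. Nnat was higher and Snrpn lower in the peri-infarct region with both treatments. For Ndn the adjusted p (edgeR) between the regions was 0.934 with vehicle and, for a fall with HPBCD, 0.0499. For Snrpn, which has 4 listed starts, the start with the most CpG dinucleotides is shown, and all 4 hold the letters.
Nnat, chr2:157559828-157560127, plus strand: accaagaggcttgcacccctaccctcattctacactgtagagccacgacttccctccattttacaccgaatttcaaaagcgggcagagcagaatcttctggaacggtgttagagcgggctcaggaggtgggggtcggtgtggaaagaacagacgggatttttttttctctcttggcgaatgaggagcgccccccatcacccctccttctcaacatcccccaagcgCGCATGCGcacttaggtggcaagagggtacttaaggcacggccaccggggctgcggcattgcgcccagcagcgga
Ndn, chr7:62348027-62348326, plus strand: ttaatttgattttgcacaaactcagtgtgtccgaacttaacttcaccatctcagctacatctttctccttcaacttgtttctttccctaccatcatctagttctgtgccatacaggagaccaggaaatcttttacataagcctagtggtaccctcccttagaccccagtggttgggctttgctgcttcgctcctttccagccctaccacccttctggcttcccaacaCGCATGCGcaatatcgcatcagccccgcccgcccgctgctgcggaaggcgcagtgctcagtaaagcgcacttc
Snrpn, chr7:60005150-60005449, minus strand: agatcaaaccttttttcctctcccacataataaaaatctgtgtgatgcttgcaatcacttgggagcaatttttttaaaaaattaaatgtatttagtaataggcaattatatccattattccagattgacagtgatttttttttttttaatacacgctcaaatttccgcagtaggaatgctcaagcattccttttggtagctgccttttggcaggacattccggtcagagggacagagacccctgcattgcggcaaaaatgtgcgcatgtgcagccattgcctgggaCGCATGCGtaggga
The letters read the same on both strands and occur in 1.87% of the 32851 promoters of the table. Their first base lies 25 bases before the start of Nnat, 23 before that of Ndn and 36 after that of Snrpn. The motif was chosen after the sequences were seen, and a match describes the letters and no binding.

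The promoter of Peg3 is shown because Peg3 was lower in the peri-infarct region with both treatments. It holds GGGGCCCC and TGACGTCA, both in capitals and both the same on the 2 strands, which occur in 1.08% and 1.79% of all promoters in the table.
Peg3, chr7:6730370-6730669, minus strand: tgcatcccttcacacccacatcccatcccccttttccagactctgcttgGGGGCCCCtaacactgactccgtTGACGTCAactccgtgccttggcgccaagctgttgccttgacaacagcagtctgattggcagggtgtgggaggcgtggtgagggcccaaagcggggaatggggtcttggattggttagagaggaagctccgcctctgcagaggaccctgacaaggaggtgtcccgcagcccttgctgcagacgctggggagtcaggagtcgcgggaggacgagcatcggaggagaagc
TGACGTCA was also found in 1 of the 2 listed Meg3 promoters, and none of these 3 motifs was found in the promoters of Igf2, Dlk1 or Plagl1.

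H19 RNA is the precursor of the microRNA miR-675, whose mature forms are shown because H19 had the largest fold of the 10 genes in both comparisons of 2 groups in which it was tested. The seeds, bases 2 to 8, are in capitals.
mmu-miR-675-5p, chr7:142577112-142577133, minus strand: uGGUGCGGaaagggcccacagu
mmu-miR-675-3p, chr7:142577078-142577099, minus strand: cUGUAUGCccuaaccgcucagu
The seeds differ from each other, and no other mature mouse microRNA of the table has either. Polyadenylated RNA libraries count the H19 transcript and not these mature forms.

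The first question was how the peri-infarct region differs from the opposite hemisphere. With vehicle, Nnat was 2.99-fold and Dlk1 3.77-fold higher in the peri-infarct region, and Snrpn was 1.6-fold and Peg3 1.26-fold lower. These 4 of the 9 genes tested had an adjusted p-value under 0.05, where 20.2% of all 15801 genes did (10.5% higher and 9.7% lower). The libraries of the regions did not overlap for the same 4, nor for 13.4% of all genes. In the fit with the replicate block, which pairs the regions of an animal, 6 of the 9 were called, with Cdkn1c (adjusted p = 0.0396) and Plagl1 (adjusted p = 0.0431) added, as were 19.3% of all genes. With HPBCD, all 10 genes were called without the block, where 54.6% of 16047 genes were (30.3% higher and 24.3% lower): H19, Nnat, Dlk1, Cdkn1c, Igf2 and Plagl1 were higher and Snrpn, Peg3, Meg3 and Ndn were lower. Of these, all but Igf2, Meg3 and Ndn were without overlap, as were 42.5% of all genes. H19 passed the filter on low counts with HPBCD through the group in which it is high, so it is set aside in what follows. Over the other 9 genes, tested with both treatments, the median log2 fold change was -0.03 with vehicle and 0.42 with HPBCD, against 0.01 and 0.03 over all genes. The members' counts are read against these shares only as a description, since the same values were known when the list was made.

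**Figure D1:**
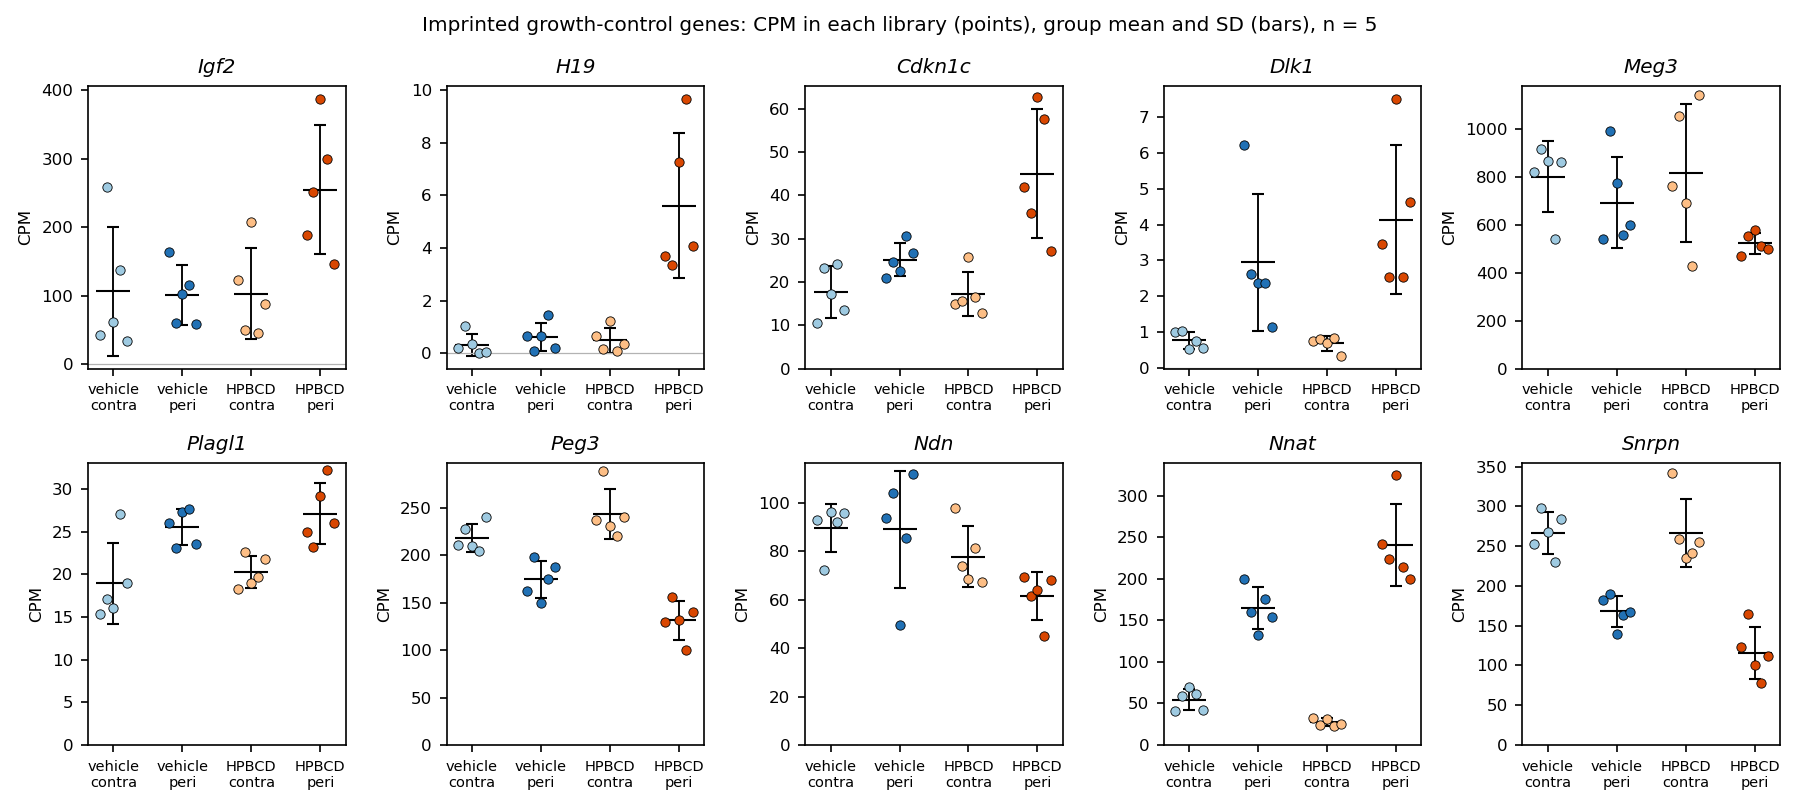
Each panel plots 1 gene in CPM (vertical axis) for the 5 libraries of each group (points), with the group mean and SD as bars. In the HPBCD peri-infarct group Nnat lies between 200 and 325 CPM, and H19 at 3.34 CPM or more against at most 1.46 CPM in the other 15 libraries.

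The second question was whether the treatments differ within a region. In the peri-infarct region, libraries labelled HPBCD had 8.87-fold more H19, 2.52-fold more Igf2, 1.79-fold more Cdkn1c and 1.46-fold more Nnat than vehicle libraries, and 1.33-fold less Peg3 and 1.46-fold less Snrpn. Of the 9 genes other than H19, 5 were called, against 21.4% of 16224 genes (12.4% higher and 9% lower), and 0 were without overlap, as were 13.4% of all genes. H19 was called and without overlap, but it was tested here only because of its level in the HPBCD libraries. With 1 library left out, 1 to 7 of the 10 members were called. Each of these counts includes H19, and no other member was called without HPBCD peri-infarct replicate 3. Over all genes 3471 were called, 823 without that library and 5339 without HPBCD peri-infarct replicate 2. In the contralateral region 0 of 9 members were called, as were 0 (0%) of the 15469 genes tested with edgeR, of which 1224 had an unadjusted p under 0.05. DESeq2 called 56 genes there, 1 of them a member (Nnat), and limma voom called 0. The region by treatment interaction is the test of whether the region difference itself differs between treatments. It was called for Nnat and Peg3, 2 of the 9 genes other than H19, against 9.41% of 16758 genes (5.03% higher and 4.38% lower). With the replicate block 3 were called, Cdkn1c as well (0.82, adjusted p = 0.0283), against 10.9% of all genes.

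**Figure D2:**
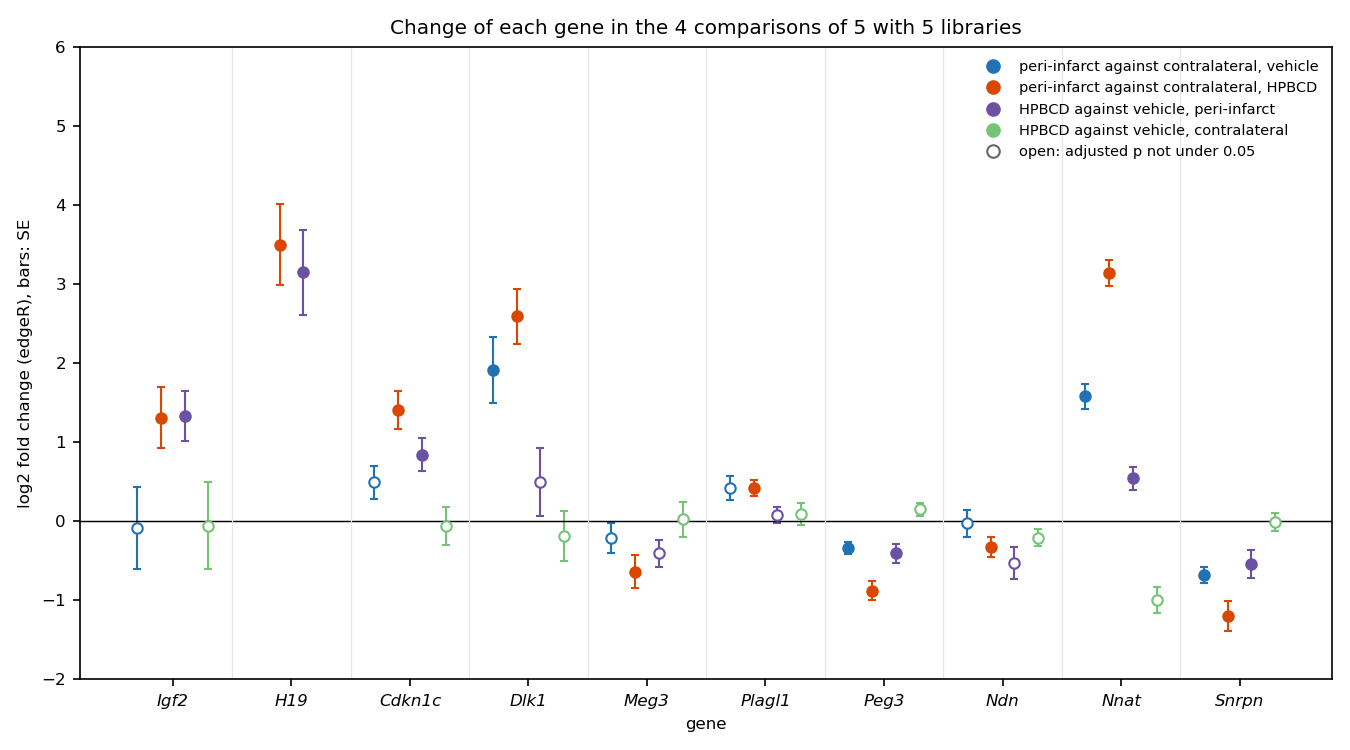
The log2 fold change (vertical axis) of each gene in the 4 comparisons of 5 with 5 libraries is plotted with its SE, with filled points where the adjusted p was under 0.05. All 10 genes have a filled point for HPBCD peri-infarct against HPBCD contralateral, and none has one for HPBCD against vehicle in the contralateral region.

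Igf2 encodes insulin-like growth factor 2, a secreted growth factor that in the adult brain comes largely from the meninges, choroid plexus and vessels. It lies on chromosome 7 (ENSMUSG00000048583, 142650766 to 142666816, minus strand, GRCm38) and is expressed from the paternal copy in most tissues, but from both parental copies in the choroid plexus and the leptomeninges. Vehicle contralateral replicates 1 to 5 had 43, 258, 60.9, 138 and 33.2 CPM, and vehicle peri-infarct replicates 164, 60.8, 103, 116 and 59.1 CPM. The vehicle groups overlapped throughout their range, and the log2 fold change was -0.09 (SE 0.52, adjusted p = 0.92). HPBCD contralateral replicates had 123, 49.8, 207, 45.4 and 88.4 CPM, and HPBCD peri-infarct replicates 189, 251, 387, 300 and 146 CPM. With HPBCD the regions overlapped through contralateral replicate 3 alone, and Igf2 was higher in the peri-infarct region by 1.31 on the log2 scale (SE 0.39, adjusted p = 0.013). Between the treatments in the peri-infarct region the log2 fold change was 1.33 (SE 0.32, adjusted p = 0.0208), and it was 1.13 without HPBCD peri-infarct replicate 3, where the adjusted p was 0.0569. The interaction for Igf2 was 1.39 (SE 0.70, adjusted p = 0.194), so a difference between the treatments in the region change was not shown.

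Igf2 and the fibroblast and meninges markers were highest in the same library in each contralateral group, but not in the peri-infarct groups. The contralateral library with the most Igf2 in each treatment, vehicle replicate 2 and HPBCD replicate 3, also had the highest marker sum of its group, 190 and 162 CPM. In the vehicle peri-infarct group replicate 4 had the highest sum, 445 CPM, and 116 CPM of Igf2, under the 164 CPM of replicate 1 at a sum of 147 CPM. HPBCD peri-infarct replicate 2 had the lowest sum of its group, 513 CPM, and 251 CPM of Igf2, above replicates 1 and 5. Replicates 3 and 4 of that group had its highest sums, 1343 and 1426 CPM, and its highest Igf2 levels, 387 and 300 CPM. All 10 of these markers were called higher in HPBCD peri-infarct than in vehicle peri-infarct libraries, as were 12.4% of all genes. HPBCD contralateral replicate 3 also had 662 CPM of summed choroid plexus markers. Of this sum, Ttr, a transport protein of choroid plexus, made up 575 CPM. HPBCD peri-infarct replicate 3, with the most Igf2 of the 20 libraries, had a choroid plexus sum of 719 CPM. These sums ran from 29.4 to 719 CPM in HPBCD peri-infarct and from 8.47 to 85.7 CPM in vehicle peri-infarct libraries. Of the 8 choroid plexus markers tested between these groups, 3 were called higher. The part of these cells in the Igf2 difference was not tested. Exons of Igf2 share 98 bp with the antisense gene Igf2os, for which a library held at most 26 counts.

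H19 is a noncoding RNA transcribed from the maternal copy, next to Igf2 and using the same enhancers, with the genes 73 kb apart (ENSMUSG00000000031, chromosome 7, 142575529 to 142578143, minus strand). H19 had 4, 19, 6, 0 and 1 counts in vehicle contralateral replicates, 13, 2, 12, 31 and 4 in vehicle peri-infarct and 13, 3, 18, 1 and 6 in HPBCD contralateral replicates. In these 3 groups 5 of the 15 libraries were at or under the floor of 3 counts, and H19 did not pass the filter on low counts in either comparison that leaves out the HPBCD peri-infarct libraries. Without that filter neither comparison called it, and its log2 fold change was 0.87 between the regions with vehicle (SE 0.80, adjusted p = 0.501) and 0.54 between the treatments in the contralateral region (SE 0.77, adjusted p = 0.848). HPBCD peri-infarct replicates had 88, 66, 150, 175 and 85 counts, or 3.7, 3.34, 7.27, 9.66 and 4.07 CPM. This group overlapped with none of the others. H19 was higher by 3.50 on the log2 scale than in HPBCD contralateral (SE 0.51, adjusted p = 9.21e-05) and by 3.15 than in vehicle peri-infarct libraries (SE 0.54, adjusted p = 0.0128). It passed the filter in these comparisons through the HPBCD peri-infarct libraries, the group in which it is high, so these values describe that group and its calls carry no further weight. The interaction was 2.60 (SE 1.07, adjusted p = 0.116).

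Igf2 counts exceeded H19 counts in every library, by 31 to 75.1 times in the HPBCD peri-infarct libraries and by 79.7 to 592 times in the vehicle peri-infarct libraries. In the contralateral libraries with H19 counts the ratio was 167 to 674, and in vehicle contralateral replicate 4 no H19 count stood beside 2534 of Igf2. The HPBCD peri-infarct libraries thus had the lowest ratios of the 20, a description made after the counts were seen. Most ratios of the other groups rest on under 20 H19 counts.

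The genes through which IGF2 acts were read from a list of 22 genes of the IGF system. Comparing the regions, 3 of the 18 tested were higher and 1 lower in peri-infarct libraries with vehicle, 8 of 19 higher and 1 lower with HPBCD, and between treatments in the peri-infarct region 8 of 19 higher and 0 lower. The shares called were 22.2%, 47.4% and 42.1%, against 20.2%, 54.6% and 21.4% of all genes. Igfbp5, an IGF-binding protein, rose from 187 to 499 CPM between the regions with vehicle (log2 fold change 1.40, SE 0.22, adjusted p = 0.00264) and from 170 to 1365 CPM with HPBCD (7.99-fold, adjusted p = 2.77e-06), and between the treatments in the peri-infarct region it was higher by 1.44 on the log2 scale (SE 0.32, adjusted p = 0.0171). Its interaction was 1.59 (SE 0.37, adjusted p = 0.0194), the only one called on this list. Igfbp3, another binding protein, rose with HPBCD from 11.8 to 67.4 CPM (log2 fold change 2.51, adjusted p = 2.44e-05). Igf2r, the receptor that takes IGF2 to the lysosome and is itself imprinted, was 0.30 higher on the log2 scale in HPBCD than in vehicle peri-infarct libraries (SE 0.08, adjusted p = 0.0229). Igf1 rose by 1.34 between the regions with HPBCD (adjusted p = 9.23e-05) and by 0.88 with vehicle (adjusted p = 0.0436), where the call was lost with the replicate block (adjusted p = 0.0525) and without any 1 of 7 of the 10 libraries, all but vehicle peri-infarct replicates 1, 2 and 5 (adjusted p up to 0.11). Igfbp4 was the gene of the list called lower, by 0.86 with vehicle (adjusted p = 0.00521) and by 0.35 with HPBCD (adjusted p = 0.046). The call with HPBCD was lost with the block (adjusted p = 0.0768) and without any 1 of 6 libraries (adjusted p up to 0.114). These were HPBCD peri-infarct replicates 1, 4 and 5 and HPBCD contralateral replicates 1, 3 and 4. Pappa2 and Pappa, proteases of IGF-binding proteins, rose in the peri-infarct region, Pappa2 with vehicle (log2 fold change 2.27, adjusted p = 0.0137) and Pappa with HPBCD (2.09, adjusted p = 0.000419). In the peri-infarct region the libraries labelled HPBCD also had more Pappa (1.64, adjusted p = 0.0231), Igfbp3 (1.56, adjusted p = 0.0317) and Igfbp6 (1.14, adjusted p = 0.0279). These 3 calls and that of Igf2r were lost without HPBCD peri-infarct replicate 3, and without vehicle peri-infarct replicates 1 or 2, with adjusted p-values of at most 0.0772. Those of Pappa and Igfbp6 were also lost without HPBCD peri-infarct replicate 4 (adjusted p = 0.0516 and 0.0629), and that of Igfbp3 also without vehicle peri-infarct replicate 5 and HPBCD peri-infarct replicates 4 and 5 (adjusted p up to 0.0721).

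Cdkn1c encodes p57Kip2, an inhibitor of cyclin-dependent kinases that holds cells out of division, and is expressed from the maternal copy (ENSMUSG00000037664, chromosome 7, 143458339 to 143461050, minus strand, 792 kb from Igf2). The 5 vehicle contralateral replicates had 10.4, 23.2, 17.3, 24.2 and 13.5 CPM, and vehicle peri-infarct replicates 20.9, 24.5, 22.6, 30.7 and 26.6 CPM. These groups overlapped, with a log2 fold change of 0.49 (SE 0.21, adjusted p = 0.122), and with the replicate block the change was called (0.54, adjusted p = 0.0396). The 5 HPBCD contralateral replicates had 14.9, 15.5, 25.8, 16.6 and 12.7 CPM, and HPBCD peri-infarct replicates 41.8, 35.8, 62.6, 57.6 and 27.1 CPM. Here the groups did not overlap, and Cdkn1c was higher in the peri-infarct region by 1.40 on the log2 scale (SE 0.24, adjusted p = 0.00029). Against vehicle peri-infarct libraries it was higher by 0.84 (SE 0.21, adjusted p = 0.0218), a call lost without vehicle peri-infarct replicates 1 or 2 or HPBCD peri-infarct replicate 3 (adjusted p = 0.0539, 0.0514 and 0.0577). Its interaction was 0.90 (SE 0.34, adjusted p = 0.0915), and 0.82 with the replicate block (adjusted p = 0.0283). The 2 peri-infarct libraries with the most Cdkn1c, HPBCD replicates 3 and 4, also had the highest sums of fibroblast and meninges markers, 1343 and 1426 CPM.

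Of the 6 other cyclin-dependent kinase inhibitors, 3 were higher and 1 was lower in the peri-infarct region with HPBCD, or 66.7% against the 54.6% of all genes called there. Cdkn2c was higher by 1.28, Cdkn2b by 1.12 and Cdkn1a, the p53 target p21, by 0.98 on the log2 scale (adjusted p = 0.000481, 0.00403 and 0.00371), whereas Cdkn2d fell by 0.67 (adjusted p = 6.74e-05). With vehicle only Cdkn2d was called, 1 of 5 tested (20%, against 20.2% of all genes), and it fell by 0.31 (adjusted p = 0.0229). That call was lost without any 1 of 5 libraries, vehicle peri-infarct replicates 3, 4 and 5 and vehicle contralateral replicates 2 and 3, with adjusted p-values of at most 0.0651. In HPBCD against vehicle peri-infarct libraries Cdkn2a (1.70, adjusted p = 0.0221) and Cdkn1b (0.47, adjusted p = 0.0165) were higher and Cdkn2d fell by 0.45 (adjusted p = 0.0128). These were 3 of 6, or 50%, against 21.4% of all genes. Cdkn2a was no longer called without vehicle peri-infarct replicates 1 or 2 or HPBCD peri-infarct replicate 3 (adjusted p up to 0.0566).

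Dlk1 encodes a membrane protein related to Notch ligands, is expressed from the paternal copy and marks immature cells of several lineages (ENSMUSG00000040856, chromosome 12, 109452823 to 109463336, plus strand). Counts in vehicle contralateral replicates were 18, 19, 9, 14 and 11, and in vehicle peri-infarct replicates 122, 51, 42, 50 and 24. In CPM these groups ran from 0.533 to 1.04 and from 1.15 to 6.22 and did not overlap, and the log2 fold change was 1.91 (SE 0.42, adjusted p = 0.0105). Counts in HPBCD contralateral replicates were 15, 16, 10, 11 and 6, and in HPBCD peri-infarct replicates 82, 50, 155, 46 and 97. In CPM they ran from 0.338 to 0.837 and from 2.53 to 7.51, again without overlap, with a log2 fold change of 2.59 (SE 0.35, adjusted p = 5.35e-05). Neither call was lost when any library was left out. The treatments overlapped in the peri-infarct region (log2 fold change 0.49, SE 0.43, adjusted p = 0.424), and the interaction was 0.67 (SE 0.58, adjusted p = 0.467). No library held more than 155 counts of Dlk1, which limits the precision of these values. Dlk2, the relative of Dlk1 that is not imprinted, moved the other way: it fell by 1.32 between the regions with HPBCD (adjusted p = 2.85e-05).

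Meg3 is a long noncoding RNA of neurons, expressed from the maternal copy 78 kb from Dlk1 (ENSMUSG00000021268, chromosome 12, 109541001 to 109571726, plus strand). With HPBCD the contralateral replicates had 762, 1054, 693, 427 and 1145 CPM, and HPBCD peri-infarct replicates 472, 555, 580, 511 and 499 CPM. The contralateral level ranged widely, replicate 4 lay under all 5 peri-infarct libraries, and the log2 fold change was -0.64 (SE 0.21, adjusted p = 0.0219). Replicate 4 is the library with the high ambiguous share, and without it the fall was called. Without HPBCD contralateral replicate 2 or 5, which had the highest levels, the adjusted p was 0.0583 and 0.0631, and with limma voom it was 0.0671. With vehicle the contralateral replicates had 821, 917, 866, 543 and 865 CPM, and vehicle peri-infarct replicates 541, 993, 777, 559 and 598 CPM. These overlapped (log2 fold change -0.22, SE 0.19, adjusted p = 0.436), though limma voom called a fall (-0.43, adjusted p = 0.0462). The treatments overlapped too in the peri-infarct region (-0.41, SE 0.17, adjusted p = 0.094). Exons of Meg3 share 1228 bp with Gm26906 on the opposite strand.

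Other genes of the same imprinted domains were read from a list of 45 imprinted genes that does not hold the 10 members. On chromosome 12 the paternally expressed Dio3, a deiodinase that inactivates thyroid hormone, was higher in the peri-infarct region as Dlk1 was, by 1.88 on the log2 scale with vehicle (SE 0.51, adjusted p = 0.0242) and by 2.32 with HPBCD (SE 0.62, adjusted p = 0.00671). The call with vehicle was lost without vehicle peri-infarct replicate 4 or vehicle contralateral replicates 2, 3 or 5 (adjusted p up to 0.0575), and Dio3 had at most 5.43 CPM in a library. The maternally expressed noncoding RNAs Rian and Mirg had log2 fold changes of -0.59 (adjusted p = 0.000163) and -1.10 (adjusted p = 0.00688) with HPBCD, in the direction of Meg3. In that comparison Dlk1 and Dio3 were thus higher, Meg3, Rian and Mirg lower, and Rtl1 at -0.14 (SE 0.41, adjusted p = 0.797).

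**Figure D3:**
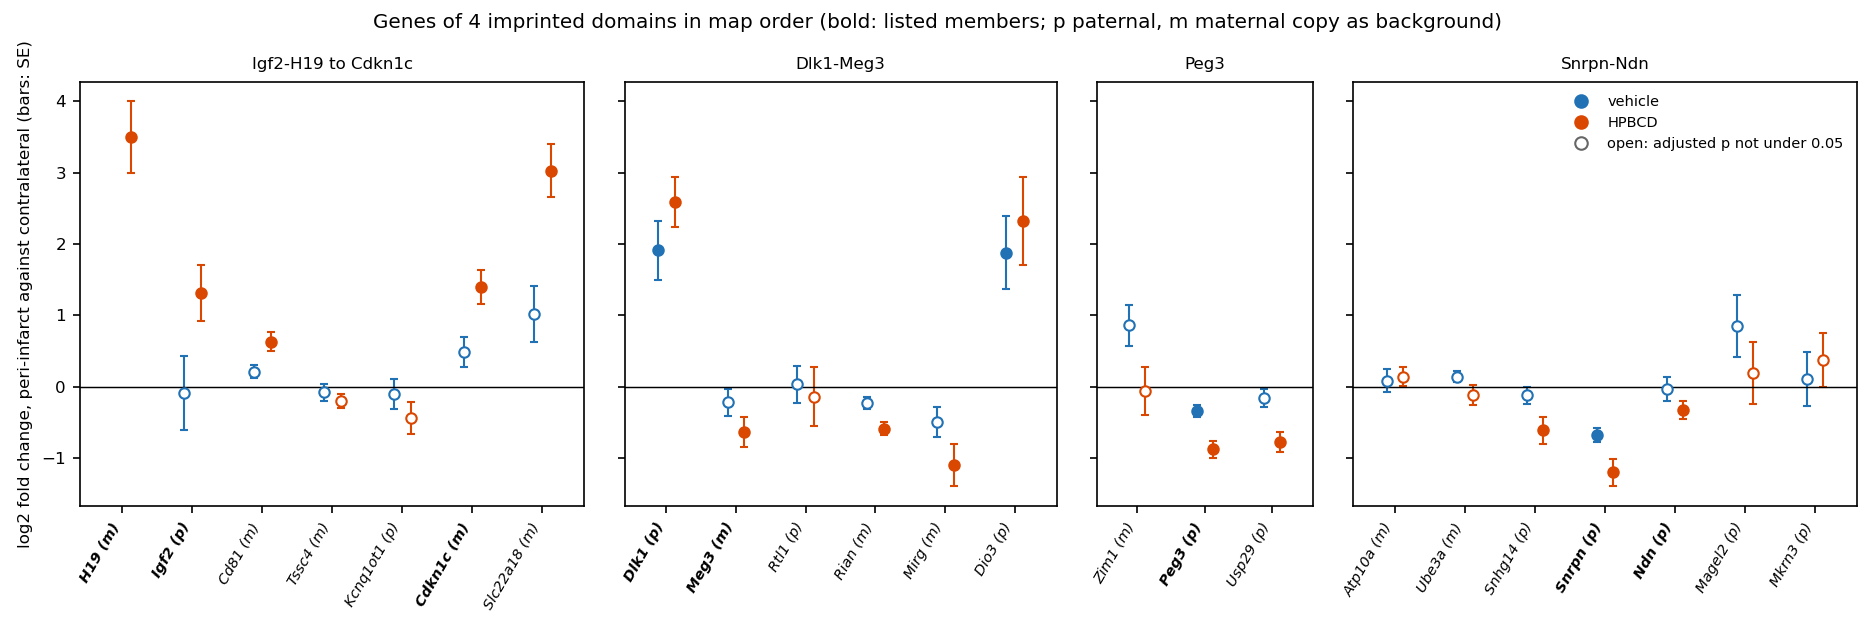
The log2 fold change with its SE (vertical axis), peri-infarct against contralateral, is plotted for genes of 4 imprinted domains in map order, members in bold and filled points where the adjusted p was under 0.05. With HPBCD, Dlk1, Dio3, H19, Igf2, Cd81, Cdkn1c and Slc22a18 lie above 0, and Meg3, Rian and Mirg below it.

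In the distal domain of chromosome 7, Slc22a18, a maternally expressed transporter gene beside Cdkn1c, was higher with HPBCD by 3.03 (SE 0.37, adjusted p = 2.3e-05), from 0.455 to 3.78 CPM. Cd81, a tetraspanin gene between Igf2 and Cdkn1c, was higher by 0.63 (SE 0.13, adjusted p = 0.00095), while Kcnq1ot1 (-0.44, adjusted p = 0.113) and Tssc4 (-0.20, adjusted p = 0.122) were not called. The genes called higher there include ones that background names as paternally expressed (Igf2) and as maternally expressed, which these libraries cannot show. With vehicle none of the tested genes of this domain was called by edgeR without the replicate block and with all libraries. Cdkn1c was called with the block, with limma voom (0.63, adjusted p = 0.0234) and without vehicle contralateral replicate 4 (0.62, adjusted p = 0.0488).

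Plagl1 encodes a zinc-finger transcription factor, also called Zac1, expressed from the paternal copy (ENSMUSG00000019817, chromosome 10, 13060504 to 13131694, plus strand). HPBCD contralateral replicates had 18.3, 22.6, 19, 19.7 and 21.8 CPM, and HPBCD peri-infarct replicates 25, 23.2, 29.2, 32.2 and 26 CPM. The peri-infarct libraries all lay above the contralateral ones, and the log2 fold change was 0.42 (SE 0.10, adjusted p = 0.00365). Vehicle contralateral replicates had 15.4, 17.1, 16.1, 27.1 and 19 CPM, and vehicle peri-infarct replicates 26, 23.1, 27.3, 27.7 and 23.6 CPM. The log2 fold change was 0.42 here too (SE 0.15), but vehicle contralateral replicate 4 lay among the peri-infarct libraries and the adjusted p was 0.0613. Without that library the change was called (0.58, adjusted p = 0.00302), and it was called with the replicate block (0.44, adjusted p = 0.0431). Plagl1 was not called between the treatments in either region, with an interaction of -0.01 (SE 0.18, adjusted p = 0.973). Plagl2, its relative that is not imprinted, was higher in the peri-infarct region with vehicle (0.63, adjusted p = 0.0156) and with HPBCD (0.85, adjusted p = 0.00148).

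Peg3 encodes a large zinc-finger protein that is abundant in neurons, and is expressed from the paternal copy (ENSMUSG00000002265, chromosome 7, 6703892 to 6730431, minus strand). Vehicle contralateral replicates had 211, 227, 209, 204 and 240 CPM, and vehicle peri-infarct replicates 162, 198, 150, 175 and 187 CPM. The groups did not overlap and Peg3 fell by 0.34 on the log2 scale (SE 0.08, adjusted p = 0.0149), with an adjusted p of 0.0579 without vehicle contralateral replicate 5. HPBCD contralateral replicates had 237, 288, 231, 220 and 240 CPM, and HPBCD peri-infarct replicates 129, 156, 132, 100 and 140 CPM. With HPBCD the fall was 0.88 (SE 0.12, adjusted p = 6.58e-05), without overlap. The difference of these falls was called as an interaction (-0.56, SE 0.15, adjusted p = 0.0268), but the call was lost when replicate 2 of vehicle peri-infarct, replicate 3 of HPBCD peri-infarct or replicate 2 of HPBCD contralateral was left out (adjusted p = 0.0565, 0.0524 and 0.0529). The peri-infarct libraries of the treatments overlapped, and the log2 fold change was -0.41 (SE 0.12, adjusted p = 0.0363). That call was lost without any 1 of 8 of the 10 libraries, all but vehicle replicate 3 and HPBCD replicate 2. Usp29, the neighbour transcribed from the same control region, had log2 fold changes of -0.16 with vehicle (adjusted p = 0.361) and -0.78 with HPBCD (adjusted p = 0.000439).

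Snrpn encodes SmN, a spliceosome protein of neurons, from the paternal copy of the Prader-Willi region (ENSMUSG00000102252, chromosome 7, 59982495 to 60140219, minus strand). Vehicle contralateral replicates had 253, 298, 268, 230 and 284 CPM, and vehicle peri-infarct replicates 182, 190, 139, 163 and 167 CPM. The groups did not overlap and Snrpn fell by 0.68 on the log2 scale (SE 0.10, adjusted p = 0.00216). HPBCD contralateral replicates had 342, 259, 235, 242 and 255 CPM, and HPBCD peri-infarct replicates 123, 165, 101, 77.7 and 112 CPM. The fall was 1.20 with HPBCD (SE 0.19, adjusted p = 0.000146), and neither region call was lost when any library was left out. Between the treatments in the peri-infarct region the log2 fold change was -0.54 (SE 0.18, adjusted p = 0.048). That call was lost without any 1 of 8 of the 10 libraries, all but vehicle replicate 3 and HPBCD replicate 2 (adjusted p up to 0.117), and without the filter on low counts (adjusted p = 0.0548). The interaction was -0.54 (SE 0.21, adjusted p = 0.101), and it was called with limma voom (-0.50, adjusted p = 0.0213) and without HPBCD peri-infarct replicate 2 (-0.68, adjusted p = 0.0165). Exons of Snrpn share 589 bp with the read-through gene Gm38393 and 216 bp with Snurf on the same strand, so pairs that fell there were left out as ambiguous.

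Peri-infarct libraries with little Snrpn also had low sums of neuron markers. HPBCD peri-infarct replicate 4 had the lowest neuron sum, 2746 CPM, the lowest Snrpn, 77.7 CPM, and the lowest Peg3 of the 20 libraries. Of the 9 neuron markers 3 fell between the regions with vehicle and 8 with HPBCD, and 6 were lower in HPBCD than in vehicle peri-infarct libraries, against 9.7%, 24.3% and 9% of all genes. Cortex markers (5 genes) summed to 1308 to 2036 CPM in vehicle contralateral, 1342 to 1891 in vehicle peri-infarct, 1649 to 1995 in HPBCD contralateral and 422 to 1516 in HPBCD peri-infarct libraries. Of these 5, 0 were called between the regions with vehicle, 4 were lower with HPBCD, and 3 were lower between the treatments in the peri-infarct region and 3 in the interaction. Over all genes 9.7%, 24.3%, 9% and 4.38% were called lower, in the same order. The part of neuron and cortex content in the Snrpn and Peg3 differences was not tested. Of the 7 genes of the Sm core, the ring of proteins that SmN joins and that all cells use, Snrpd1 fell by 0.43 with vehicle and by 0.44 with HPBCD (adjusted p = 0.00397 and 0.00154). Snrpd3 fell by 0.28 and 0.47 (adjusted p = 0.0292 and 0.00151), and the other 4 tested were not called in either region comparison. The share called was 33.3% in each, against 20.2% of all genes with vehicle and 54.6% with HPBCD. The Snrpd3 call with vehicle was lost without any 1 of 6 libraries, vehicle peri-infarct replicates 1, 3 and 4 and vehicle contralateral replicates 2, 3 and 5 (adjusted p up to 0.103).

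**Figure D4:**
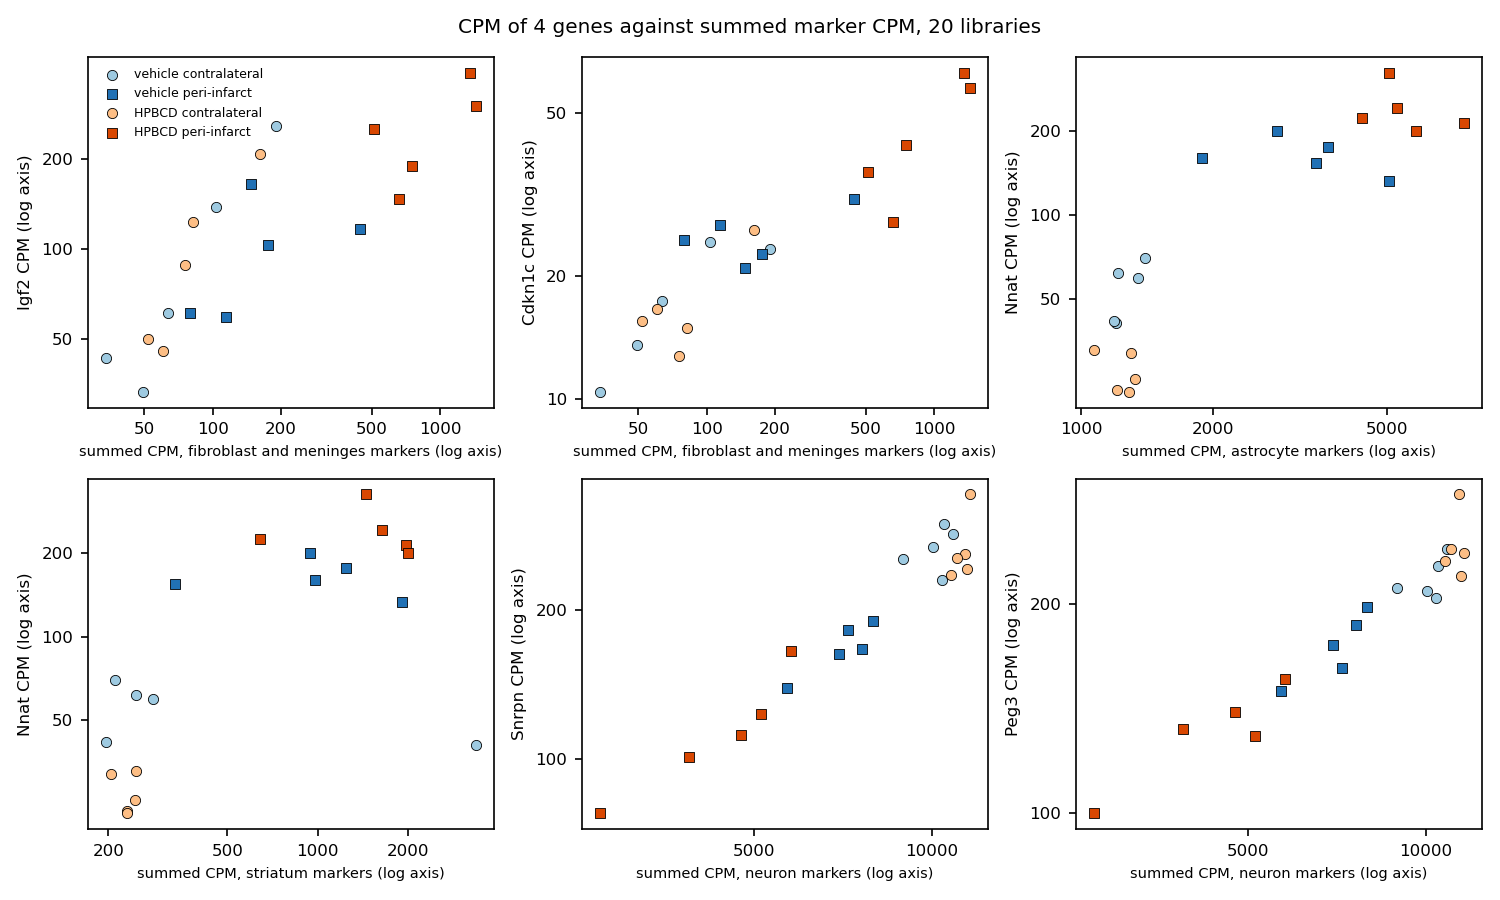
Each point is 1 of the 20 libraries, with the summed CPM of a marker list on the horizontal and the CPM of Igf2, Cdkn1c, Nnat, Snrpn or Peg3 on the vertical axis, both logarithmic. Snrpn and Peg3 are lowest at the lowest neuron sum, 2746 CPM. The vehicle contralateral library with the high striatum sum, 3375 CPM, has 40.8 CPM of Nnat.

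Ndn encodes necdin, a protein of postmitotic neurons, from the paternal copy of the same region (ENSMUSG00000033585, chromosome 7, 62346569 to 62350262, plus strand). In HPBCD contralateral replicates Ndn was at 98, 74, 68.7, 81.2 and 67.1 CPM, and HPBCD peri-infarct replicates 69.4, 61.7, 64.2, 44.9 and 68.3 CPM. The groups overlapped, and the fall of 0.33 on the log2 scale (SE 0.13, adjusted p = 0.0499) lay at the threshold. Its call was lost without any 1 of 6 libraries (adjusted p 0.0501 to 0.129), HPBCD peri-infarct replicates 2, 3 and 4 and HPBCD contralateral replicates 1, 2 and 4. The call was also lost with limma voom, with at least 10 counts in every library and in the fit of all 4 groups (adjusted p = 0.0803, 0.0569 and 0.0962). In vehicle contralateral replicates Ndn was at 93, 72.3, 96, 91.9 and 95.7 CPM, and vehicle peri-infarct replicates 93.9, 104, 49.5, 85.5 and 112 CPM, with a log2 fold change of -0.03 (SE 0.17, adjusted p = 0.934). In the peri-infarct region the log2 difference of HPBCD from vehicle for Ndn was -0.53 (SE 0.20, adjusted p = 0.0715), and DESeq2, limma voom and the fit of all 4 groups called it (adjusted p = 0.0393, 0.0325 and 0.0239). In the same region Snhg14, a long transcript that hosts small nucleolar RNAs, fell by 0.61 with HPBCD (adjusted p = 0.0173), and the maternally expressed Ube3a was at -0.12 (adjusted p = 0.479).

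Nnat encodes neuronatin, a small membrane protein of the developing brain, from the paternal copy (ENSMUSG00000067786, chromosome 2, 157560078 to 157562522, plus strand). Vehicle contralateral replicates had 40.8, 59.4, 69.9, 61.8 and 41.6 CPM, and vehicle peri-infarct replicates 200, 160, 133, 176 and 154 CPM. HPBCD contralateral replicates had 32.7, 23.5, 31.9, 23.1 and 25.7 CPM, and HPBCD peri-infarct replicates 242, 224, 325, 214 and 200 CPM. Nnat was the member with the smallest adjusted p in each region comparison: it was higher in the peri-infarct region by 1.58 with vehicle (SE 0.16, adjusted p = 0.00115) and by 3.14 with HPBCD (SE 0.16, adjusted p = 1.08e-07), and no region groups overlapped. The interaction was 1.55 (SE 0.23, adjusted p = 0.0104), and it stayed called whichever library was left out (adjusted p 0.00356 to 0.0269).

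The interaction of Nnat drew on both regions. In the peri-infarct region HPBCD libraries were higher by 0.54 (SE 0.15, adjusted p = 0.0274) with overlapping libraries, and the call was lost without vehicle peri-infarct replicates 2 or 5 or HPBCD peri-infarct replicate 3 (adjusted p = 0.0643, 0.055 and 0.0626). In the contralateral region all 5 HPBCD libraries lay under all 5 vehicle libraries, 27.4 ± 4.62 against 54.7 ± 12.9 CPM (mean and SD, n = 5 each), as was so in either direction for 1.51% of genes. The level was 2.01-fold lower (SE 0.16 on the log2 scale), with an unadjusted p of 3.05e-05 and an adjusted p of 0.236 over all genes. DESeq2 and the fit without a filter on low counts called it (adjusted p = 1.25e-05 and 0.0187), and with each library left out it stayed not called. Vehicle contralateral replicate 1, the library with the high striatum sum, had 40.8 CPM, the lowest of its group.

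Nnat lies inside an intron of Blcap, which is on the opposite strand (chromosome 2, 157556362 to 157571274) and is expressed in neurons from the maternal copy. Blcap had 66.2 ± 8.1 CPM in vehicle contralateral, 70.6 ± 6.39 in vehicle peri-infarct, 56.8 ± 4.79 in HPBCD contralateral and 59.5 ± 8.14 in HPBCD peri-infarct libraries (mean and SD, n = 5 each). Its log2 fold change between the regions was 0.08 with vehicle (SE 0.09, adjusted p = 0.578) and 0.07 with HPBCD (SE 0.10, adjusted p = 0.6). Astrocyte markers (5 genes) summed to 1072 to 1399 CPM in the contralateral libraries, to a median of 3433 and at most 5055 in vehicle peri-infarct and to 4384 to 7460 in HPBCD peri-infarct libraries, and striatum markers were higher in the peri-infarct region with HPBCD in 8 of 8 genes, where 30.3% of all genes were called higher. Of these 8 striatum markers, 0 were called between the regions with vehicle, where vehicle contralateral replicate 1 had a sum of 3375 CPM. The other vehicle contralateral libraries had 197 to 283 CPM, and the vehicle peri-infarct libraries 333 to 1909 CPM. Between the treatments in the peri-infarct region 0 of the 8 were called, and 1 of the 5 astrocyte markers was called higher. Ependyma markers (5 genes) summed to 4.08 to 33.8 CPM in vehicle contralateral and 18.4 to 47.7 in vehicle peri-infarct libraries. The sums were 5.79 to 9.44 CPM in HPBCD contralateral and 70.4 to 139 in HPBCD peri-infarct libraries. In the interaction 4 of the 5 were called higher, as were 5.03% of all genes. The 6 hypothalamus markers summed to 1.2 to 2.81 CPM over all 20 libraries. The part of these cell types in the Nnat differences was not tested.

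Levels of different genes were compared as CPM per kb of exon. In vehicle contralateral libraries Snrpn stood highest, at 124 CPM per kb, without overlap with Meg3 at 44.4, and Meg3, Nnat (29.9), Ndn (24.3), Igf2 (18.6) and Peg3 (16.4) each overlapped with the next. Cdkn1c (8.69) and Plagl1 (2.42) followed without overlap, and Dlk1 (0.136) and H19 (0.135) were lowest. In HPBCD contralateral libraries Nnat stood sixth in this order, at 15, overlapping with Igf2 above it at 17.9 and Cdkn1c below it at 8.38. In vehicle peri-infarct libraries Nnat (90) and Snrpn (78) stood highest and overlapped. In HPBCD peri-infarct libraries Nnat stood alone at 132, followed by Snrpn (53.6), Igf2 (44.5), Meg3 (28.9), Cdkn1c (22.1) and Ndn (16.7), each overlapping with the next, and by Peg3 (9.85). Counts of uniquely assigned pairs divided by exon length understate genes whose exons are shared with others.

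Over the whole list of other imprinted genes, 38 passed the filter in each comparison of 2 groups. With vehicle the peri-infarct region had 1 higher and 3 lower, and 10.5% were called against 20.2% of all genes. With HPBCD 6 were higher and 12 lower (47.4% against 54.6%), and between the treatments in the peri-infarct region 3 were higher and 8 lower (28.9% against 21.4%). The medians of their log2 fold changes were 0.02, -0.17 and -0.25, against 0.01, 0.03 and 0.01 over all genes. In the contralateral region 0 of 38 were called, as for all genes. The interaction was called for 6 of 39 (15.4%, against 9.41% of all genes), of which 1 was higher. With the replicate block it was called for 3, and for 10.9% of all genes.

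Among the paternally expressed genes of that list, Peg13, Nap1l5 and Peg10 fell most with HPBCD (adjusted p = 2.13e-05, 2.61e-05 and 4.17e-05), Peg13 by 1.12 and Peg10 by 0.92 on the log2 scale and Nap1l5 from 422 to 211 CPM. Peg13, a neuronal noncoding RNA, and Peg10, a retrotransposon-derived gene, also fell with vehicle, by 0.54 and 0.64 (adjusted p = 0.00227 and 0.0099), as did Inpp5f, a phosphoinositide phosphatase gene (by 0.30, adjusted p = 0.0155). Slc38a4, an amino acid transporter gene, and Sgce, the ε-sarcoglycan gene, were higher with HPBCD, Slc38a4 2.83-fold and Sgce by 0.52 on the log2 scale (adjusted p = 0.00107 and 0.000469). Among the genes listed as maternally expressed, which these libraries cannot show, were Gnas, which encodes the stimulatory G protein subunit, and Cobl, an actin nucleator gene. They had log2 fold changes of -0.72 and -0.67 with HPBCD (adjusted p = 8.48e-05 and 0.00291). The interaction was called for Gnas (-0.58, adjusted p = 0.0248), Nap1l5 (-0.69, adjusted p = 0.0313), Peg13 (-0.60, adjusted p = 0.028), Usp29 (-0.63, adjusted p = 0.0469), Cobl (-0.69, adjusted p = 0.0483) and Slc22a18 (2.01, adjusted p = 0.0346). With the replicate block Usp29, Cobl and Slc22a18 were not called (adjusted p = 0.0598, 0.0523 and 0.0589). Each of these 6 interaction calls was lost without vehicle peri-infarct replicate 2, and each but that of Gnas also without HPBCD peri-infarct replicate 3. Of the 20 libraries, the number whose removal ended the call was 1 for Gnas, 5 for Nap1l5, 6 for Peg13, 10 for Slc22a18, 15 for Cobl and 16 for Usp29. Of the genes called between the peri-infarct groups, Sgce (0.40) and Slc22a18 (1.17) were higher, as was Igf2r, and Mest (-0.52), Nap1l5 (-0.53), Peg13 (-0.49), Usp29 (-0.60), Gnas (-0.59), Cobl (-0.64), Rian (-0.34) and Mirg (-0.69) were lower, with adjusted p-values of 0.0155 to 0.0451. Without HPBCD peri-infarct replicate 3, or without vehicle peri-infarct replicate 2, 1 of the 38 genes was called in that comparison, and over all genes 823 and 1303 in place of 3471.

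Of the relatives of the members not yet named, Maged2, which like Ndn belongs to the MAGE family, was higher by 0.30 on the log2 scale in the peri-infarct region with HPBCD (SE 0.08, adjusted p = 0.00791). Against vehicle peri-infarct libraries it was higher by 0.23 (adjusted p = 0.0419), a call lost without any 1 of 8 libraries (adjusted p up to 0.108). Dlk2 was lower there by a log2 fold change of -0.86 (adjusted p = 0.0149), with an interaction of -0.88 (adjusted p = 0.0317). The interaction call was lost without any 1 of 7 of the 20 libraries (adjusted p up to 0.0663).

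For each member the genes most like it over the 20 libraries were found as the 3 with the smallest root mean square (RMS) difference of centred log2 CPM, among 11794 genes with a mean of at least 5 CPM. The measure describes these libraries, which share the same group differences. Snrpn had the closest neighbours for its spread: Carmil2, Cend1 and Brinp1 differed from it by 0.10 to 0.12, while Snrpn itself varied by an RMS of 0.56 around its mean. Peg3 (0.38) was followed by Dffa, Ccdc149 and Tcf25, each at 0.11, and Plagl1 (0.29) by Ccnd2 (0.13), Mpdz and Marcks (both 0.14). Meg3 (0.41) was nearest to Snhg11 (0.17), Mir124a-1hg and Miat (both 0.20), all 3 of them noncoding RNA genes, and Ndn (0.34) to Tubb4b (0.16), Tusc3 and Zcchc18 (both 0.17). Igf2 (1.01) was nearest to Fmod (0.31), Mrc1 (0.37) and Slc6a13 (0.41), of which Slc6a13 is on the list of fibroblast and meninges markers and Mrc1 on that of microglia and macrophages. Cdkn1c (0.67) was nearest to Wnt5a (0.22), Fzd1 (0.25) and Egfr (0.26), and Nnat (1.27) to Tnc (0.39), Efcab1 (0.41) and Tspan18 (0.46). For Dlk1 (1.15) and H19 (1.88), whose counts are low, the nearest genes were no closer than 0.54 and 0.70, Efcab1 for Dlk1 and Foxc2 for H19.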

How the data were processed

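Polyadenylated RNA was measured in 20 libraries, 5 in each of 4 groups of region (peri-infarct or contralateral) by treatment (vehicle or HPBCD). Group and replicate number are those of the sample titles. Stranded mRNA libraries were sequenced as read pairs. According to the submitters' notes these were trimmed with Trimmomatic 0.32, aligned to GRCm38 with STAR 2.5.2b and counted per Ensembl gene with HTSeq. Each deposited table holds raw counts of 1 library, which the authors left without normalization. The annotation release and strand option of the counting are not given in the sources used here, so genes that overlap on opposite strands are uncertain. Lines that name no gene were left out. The share of pairs without a feature was 4.39% to 9.5%, and of pairs not aligned uniquely 16.6% to 24.3%. Symbols, coordinates and exon lengths are from GENCODE M21 (GRCm38), which held 97.97% of the genes, and sequences from RefSeq (GRCm38.p6).

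Differences were tested with edgeR 4.0.16 in R 4.3.3 (quasi-likelihood F test, TMM factors, filterByExpr) and Benjamini-Hochberg adjustment over all genes tested. "Called" means an adjusted p under 0.05. A pair of groups was fitted on its 10 libraries and the interaction on all 20. The SE was taken as the absolute log2 fold change over the square root of the F statistic. CPM carry TMM factors of all 20 libraries. Groups without overlap are those in which every library of one lies above every library of the other. The scripts were tested on simulated data. Alternatives were DESeq2 1.42.0, limma voom (limma 3.58.1) with sample quality weights, RLE factors, no filter, at least 10 counts in every library, the replicate block, 1 fit of all 4 groups, and leaving out each library.

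The members and lists were chosen with earlier results of these data known. Listed genes were named where they were called with a mean of at least 1 CPM in one of the groups compared, up to the 4 largest folds in each direction per list and comparison. Neighbours in a member's domain, and all other imprinted genes called between the treatments or in the interaction, were named as well, the latter after their values were seen. Of 180 listed symbols 179 had an identifier. Within a treatment, same-numbered libraries of both regions carry the same animal identifier in their deposited names, so the number pairs the regions. Deviations from the group means correlated across genes by -0.110 to 0.301 over the 10 pairs, and 4 pairs were over 0.1. Between treatments the number is a name only. Identifiers differ within a group, so p-values between the treatments in a region measure the spread between animals. The main fits of the region comparisons and of the interaction treat both regions of an animal as independent. Only the fit with the replicate block takes this pairing into account. Floors cover counting error only, since pairs carry no molecular identifiers.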

Additional observations from a re-analysis of the deposited data

Results flagged for a closer look

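Among the 5 libraries of a group, 1 library lay far from the other 4 for 4 of the members. Dlk1 was at 6.22 CPM in vehicle peri-infarct replicate 1 against 1.15 to 2.61 CPM in the others, and Meg3 at 543 CPM in vehicle contralateral replicate 4 against 821 to 917 CPM. Ndn was at 72.3 CPM in vehicle contralateral replicate 2 against 91.9 to 96 CPM, and Snrpn at 342 CPM in HPBCD contralateral replicate 1 against 235 to 259 CPM. Of the library measures, the ambiguous share was 8.03% and the share without a feature 9.5% in HPBCD contralateral replicate 4, and the ambiguous share was 4.02% in vehicle peri-infarct replicate 2 against 4.08% to 4.1%. These are 7 of 48 groups examined with Dixon's criterion (0.71 for 5 libraries), of which chance gives about 1 in 20.

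The change between the regions differed by treatment in the interaction test for Nnat (1.55 on the log2 scale) and Peg3 (-0.56), and with the replicate block also for Cdkn1c (0.82). The change of Nnat was higher in the same direction with both treatments, and that of Peg3 lower with both.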

How the results depend on the processing

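Of 580 values of the members with 1 library left out, 506 kept direction and side of the threshold, 35 lost their call, 5 gained one and 34 changed sign, and of 319 under the other alternatives the numbers were 290, 5, 15 and 9. With 1 library left out, 1 to 7 members, always including H19, were called between the treatments in the peri-infarct region, and 1 to 3 members in the interaction. For the other imprinted genes these counts were 1 to 16 and 0 to 9, and 3 to 7 between the regions with vehicle. With limma voom 7 members and 11 other imprinted genes were called between the regions with vehicle, where it called 32.1% of all genes, and 14 other imprinted genes in the interaction, where it called 24.5%. In the contralateral region 1 member, Nnat, was called with DESeq2 and 1 without a filter on low counts. Signs changed for values that were not called. Igf2 with vehicle was at 0.51 with voom, and at -0.34 to 0.55 with 1 library left out, where Ndn was at -0.11 to 0.14. Between the treatments in the contralateral region voom gave 0.09 for Cdkn1c, 0.01 for Dlk1, 0.28 for Igf2 and -0.20 for Meg3. Leaving out 1 library there gave -0.26 to 0.07 for Cdkn1c, -0.48 to 0.58 for Igf2, -0.14 to 0.18 for Meg3 and -0.12 to 0.03 for Snrpn. The interaction of Plagl1 was 0.02 with at least 10 counts in every library and -0.15 to 0.07 with 1 library left out. The cause of these differences was not tested.

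With the replicate block, 6 members in place of 4 were called between the regions with vehicle. In the interaction, 3 members in place of 2 (Cdkn1c as well) and 3 other imprinted genes in place of 6 were called. Igf2 was at 0.26 with the block between the regions with vehicle. Between the treatments in the contralateral region, where the number pairs nothing, Igf2 was at 0.22 and Meg3 at -0.04. The depth limits H19 and Dlk1 most, since H19 had at most 31 counts outside the HPBCD peri-infarct libraries.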
